A study of Mus musculus with 8 samples.

Results

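The adipocyte marker genes described here are 9 genes that fat cells express: *Adipoq*, *Cfd*, *Retn*, *Lep*, *Plin1*, *Plin4*, *Cidec*, *Fabp4* and *Pparg*. They were chosen by name, and a probe was counted for a gene when its RefSeq accession belongs to that gene, which gave 11 probes for 9 of the 20660 genes that the array names by a RefSeq accession. Transcript levels were measured in *gastrocnemius* and tibialis anterior (TA) muscle of *Eif6*+/- and wild-type (WT) mice on 8 two-colour Agilent arrays, 4 arrays for each muscle. The mice were male C57BL6 littermates 8 to 16 weeks old that carried 1 or both copies of *Eif6*, which encodes a translation initiation factor, and each *Eif6*+/- mouse was paired at random with a WT mouse of like age. By the published methods, excess fat and connective tissue were trimmed from the muscles at dissection. By the labels the *Eif6*+/- mouse was in Cy5 and the WT mouse in Cy3 on all 8 arrays, so dye and genotype cannot be told apart within a muscle. The published methods name Cy3 alone, and the direction of every ratio rests on the labels. Both probes for *Eif6*, given below, were lower in Cy5 on all 8 arrays, which is the way the labels run. The published study gives a reduced eIF6 expression in *Eif6*+/- mice. All 8 arrays lay on 1 slide, with the *gastrocnemius* in one of its rows and TA in the other, so muscle and slide row cannot be told apart, and nothing states that pair 1 of one muscle and pair 1 of the other are the same mice.

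White fat cells store triglyceride in a single large lipid droplet whose surface carries perilipins and CIDE proteins, and they secrete hormones and other proteins into the blood. The nuclear receptor PPARγ drives their formation together with C/EBP factors, and many of the genes that mark fat cells are its targets. Fat cells also lie between and around muscle fibres, and some of the genes that mark them, among them *Fabp4* and *Plin4*, are expressed by other cells of muscle as well.

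The targeted gene had 2 probes. Probe A_52_P85864 for *Eif6* gave log2 ratios, *Eif6*+/- over WT, of −0.97, −1.15, −0.89 and −1.06 on the *gastrocnemius* arrays of pairs 1 to 4, and of −1.22, −1.03, −0.95 and −0.80 on the TA arrays. Probe A_55_P1989013 gave −0.995, −1.32, −1.11 and −1.09 in *gastrocnemius*, and −1.20, −1.04, −1.21 and −1.04 in TA. All 8 arrays were therefore below 0 at both probes, with means of −1.02 and −1.13 in *gastrocnemius* and −0.999 and −1.12 in TA. Where these probes lie relative to the deleted part of the gene is not known.

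Of the 11 member probes, 10 probes for 8 genes in *gastrocnemius* and 9 probes for 8 genes in TA rose well above background on every array of the muscle, in one channel or both, and were tested. *Lep*, which encodes the hormone leptin, was the gene left out. Its probe A_52_P374882 was well above background in only 4 of the 16 channel readings, all in *gastrocnemius*, so no ratio is given for it, and its log2 intensities of 6.02 to 6.14 in TA, where no reading was well above background, are upper bounds. The 4 readings depend on how a probe's spots are counted, and were 1 where at least 0.5 of the spots had to be well above background. The probe left out in TA alone was A_55_P1969128, the dimmer of the 2 *Cidec* probes.

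*Cfd* encodes adipsin, a serine protease of the complement system that fat cells secrete. Its log2 ratio in *gastrocnemius* was −0.61 on the array of pair 1, −0.07 on that of pair 2, −1.12 on that of pair 3 and −1.78 on that of pair 4. In TA it was 0.41, −0.68, 1.86 and 0.16 on the arrays of pairs 1 to 4. The *gastrocnemius* ratios were all below 0, though by little in pair 2, whereas the TA ratios lay on both sides of 0 and spanned more than the *gastrocnemius* ratios did. In bulk muscle, fewer fat cells and less RNA per fat cell cannot be told apart. The mean was −0.89 ± 0.73 (SD) over the 4 *gastrocnemius* arrays, 0.538-fold, with a limma adjusted p of 0.0745. In TA the mean was 0.44 ± 1.06 with an adjusted p of 0.405, above 0 on 3 of 4 arrays.

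*Adipoq* encodes adiponectin, a hormone made by fat cells. It gave −0.36, −0.00, −0.87 and −1.34 on the *gastrocnemius* arrays of pairs 1 to 4. On the TA arrays it gave 0.56, −0.54, 1.97 and 0.61. As with *Cfd*, pair 4 was the lowest in *gastrocnemius* and pair 2 nearest to 0, and in TA pair 2 was the lowest and pair 3 the highest. The *gastrocnemius* mean was −0.64 ± 0.59 (SD), 0.640-fold, with an adjusted p of 0.0998, just inside the threshold of 0.1 used for a call. The TA mean of 0.65 ± 1.03 had an adjusted p of 0.214.

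*Retn* encodes resistin, which mouse fat cells secrete. Probe A_55_P2428514 gave 0.41, 0.38, 0.07 and −0.76 in *gastrocnemius*, and 0.74, −0.15, 1.30 and 0.72 in TA. Probe A_55_P1984806 gave 0.22, 0.07, −0.23 and −0.74 in *gastrocnemius*, and 0.61, −0.26, 1.16 and 0.60 in TA. Both probes were lowest on the *gastrocnemius* array of pair 4 and highest on the TA array of pair 3, and both were above 0 on 3 of 4 TA arrays. In TA the first probe had a mean of 0.65 ± 0.60 (SD), 1.57-fold, and an adjusted p of 0.0733, and the second a mean of 0.53 with an adjusted p of 0.114, so 1 of the 2 *Retn* probes was called. In *gastrocnemius* the means were 0.02 and −0.17, and neither was called.

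**Figure D1:**
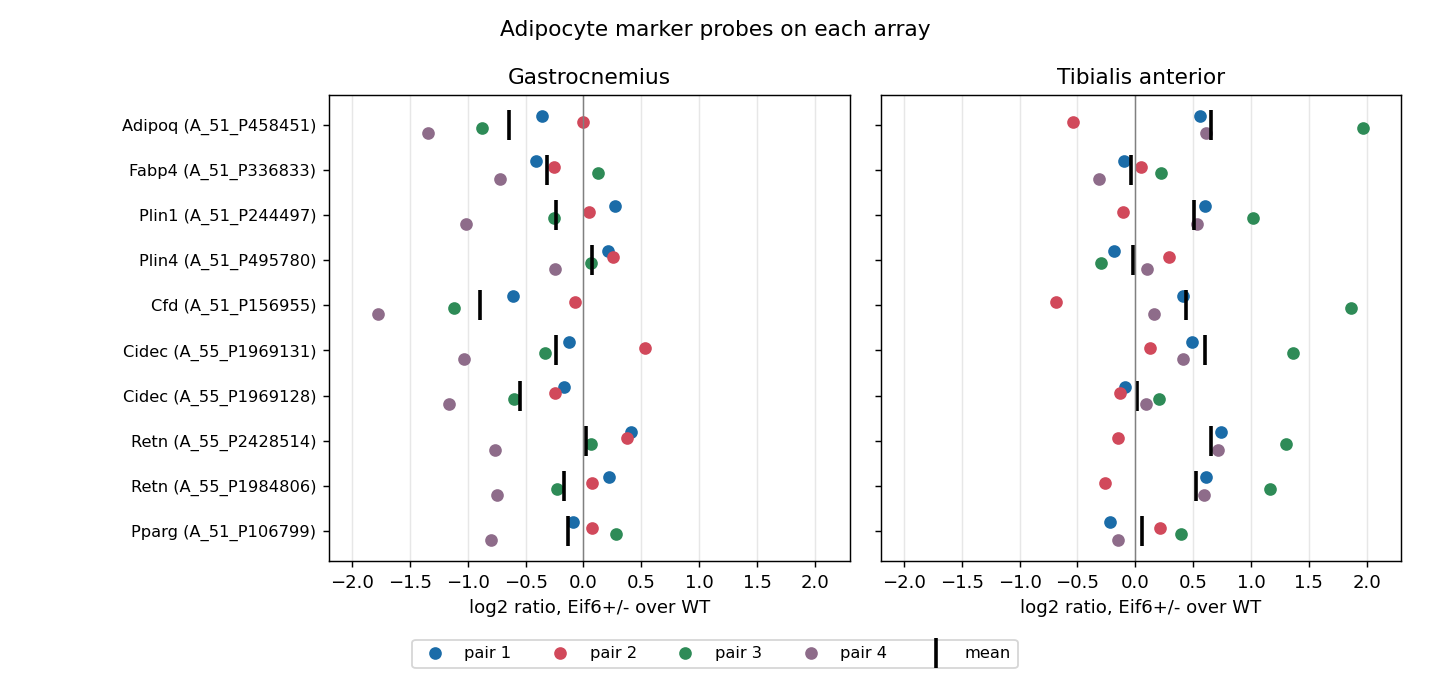
Log2 ratio, *Eif6*+/- over WT, of each tested adipocyte marker probe on each array, *gastrocnemius* on the left and TA on the right. Each point is 1 array, coloured by its pair number within the muscle, and the bar is the mean of 4 arrays. The TA values of *Cidec* probe A_55_P1969128 are drawn although that probe was not tested there. Pair 4 lies to the left in *gastrocnemius* (*Cfd* −1.78) and pair 3 to the right in TA (*Adipoq* 1.97).

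*Plin1* encodes perilipin 1, the coat protein of the fat cell's lipid droplet. Its log2 ratio was 0.27, 0.05, −0.25 and −1.01 in *gastrocnemius*, and 0.60, −0.11, 1.01 and 0.53 in TA. *Gastrocnemius* was split evenly about 0, and TA was above 0 on 3 of 4 arrays. The TA mean of 0.51 ± 0.46 (SD) had an adjusted p of 0.0791, and the *gastrocnemius* mean of −0.24 ± 0.56 one of 0.474. *Plin1* was dim in TA: its WT reading was well above background on 3 of 4 arrays and its *Eif6*+/- reading on all 4, so on 1 array it was kept through the *Eif6*+/- channel alone. Its TA mean is therefore not turned into a fold, since its size rests in part on a WT reading not well above background. With both channels required above background, *Plin1* was not tested in TA. Its TA ratio depends on the handling of background, 0.90 at a normexp offset of 0 (adjusted p 0.121) and 1.18 with processed signals (0.150), and over all fits its adjusted p ran from 0.0467 to 0.281.

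*Cidec* encodes a protein that moves lipid from smaller to larger droplets where they touch. Its brighter probe A_55_P1969131 gave −0.13, 0.53, −0.33 and −1.03 in *gastrocnemius*, and 0.49, 0.13, 1.36 and 0.42 in TA. Its dimmer probe A_55_P1969128 gave −0.17, −0.24, −0.60 and −1.16 in *gastrocnemius*. The probes differ on the *gastrocnemius* array of pair 2, where one was above 0 and the other below it, and both were lowest on that of pair 4. The dimmer probe was called lower in *gastrocnemius* (mean −0.54 ± 0.45 SD, below 0 on all 4 arrays, adjusted p 0.0888), while the brighter probe was not (−0.24, adjusted p 0.522). The brighter probe was called higher in TA, with a mean of 0.60 ± 0.53, 1.51-fold, and an adjusted p of 0.0709.

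The 3 other tested members were called in neither muscle. *Fabp4*, which encodes a carrier of fatty acids in the cytosol, ranged from −0.72 to 0.12 in *gastrocnemius* (mean −0.31, adjusted p 0.183) and from −0.32 to 0.22 in TA (mean −0.04, adjusted p 0.833). *Plin4*, whose product coats small lipid droplets, ranged from −0.24 to 0.26 in *gastrocnemius* and from −0.29 to 0.29 in TA, with means of 0.07 and −0.02. *Pparg*, which encodes PPARγ, ranged from −0.80 to 0.28 in *gastrocnemius* and from −0.22 to 0.39 in TA, with means of −0.13 and 0.06. The 95% intervals in *gastrocnemius* were −0.62 to −0.01 for *Fabp4* (unadjusted p 0.0464), −0.16 to 0.31 for *Plin4* and −0.52 to 0.25 for *Pparg*. Those in TA were −0.25 to 0.18 for *Fabp4*, −0.25 to 0.21 for *Plin4* and −0.19 to 0.31 for *Pparg*.

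In *gastrocnemius*, 3 of 10 member probes were called, all lower in *Eif6*+/- (*Cfd*, *Adipoq* and 1 *Cidec* probe), beside 13.8 percent of all 23802 probes called in either direction and 5.68 percent called lower. In TA, 3 of 9 were called, all higher in *Eif6*+/- (1 probe each for *Plin1*, *Cidec* and *Retn*), beside 15.2 percent of all 23391 probes in either direction and 7.68 percent called higher. The median over the member probes was −0.24 in *gastrocnemius*, where that over all probes was 0.01, and 0.51 in TA, where that over all probes was 0.00. In TA, *Plin1* counts among the 3 although it was kept on 1 array through the *Eif6*+/- channel alone, and the median is its own value. With both channels required above background, 2 member probes were called in TA and the median was 0.48.

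Leaving out 1 pair changed these calls, in fits of 3 arrays that also called fewer of all probes in most cases. Without *gastrocnemius* pair 3, 0 member probes were called, with *Cfd* at −0.82 and an adjusted p of 0.2501. Without pair 4, 0 were called, with *Cfd* at −0.60 and an adjusted p of 0.204, and in each of these fits limma called 0 of all probes, those for *Eif6* included. Without pair 1, *Adipoq* rose to an adjusted p of 0.102 and 2 member probes were left. In TA, 0 member probes were called without pair 1, with *Cidec* at 0.64 and an adjusted p of 0.233 and with 113 of all probes called, and *Cidec* alone was called without pair 3 (0.34) and without pair 4 (0.66). Without TA pair 2, 5 were called, *Adipoq* at 1.05 (adjusted p 0.0940) and the second *Retn* probe among them. The mean of *Adipoq* became −0.41 in *gastrocnemius* without pair 4 and 0.21 in TA without pair 3, that of the dimmer *Cidec* probe −0.34 in *gastrocnemius* without pair 4, and that of *Cfd* in TA 0.81 without pair 2 and −0.04 without pair 3. That of *Fabp4* became −0.18 in *gastrocnemius* without pair 4, and that of the second *Retn* probe 0.32 in TA without pair 3. Over all fits, those without 1 pair included, the adjusted p of *Cfd* in *gastrocnemius* ran from 0.0590 to 0.2501 and that of *Adipoq* in TA from 0.0940 to 0.562.

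Single arrays carried much of the pattern. The median over the member probes was −0.11, 0.06, −0.24 and −0.91 on the *gastrocnemius* arrays of pairs 1 to 4, while that over all probes lay between 0.01 and 0.03. On the TA arrays it was 0.49, −0.11, 1.16 and 0.42, while that over all probes lay between −0.02 and 0.01. All 10 member probes were below 0 on the *gastrocnemius* array of pair 4, and 8 of 9 were above 0 on the TA array of pair 3, where *Plin4* was the exception at −0.29.

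**Figure D2:**
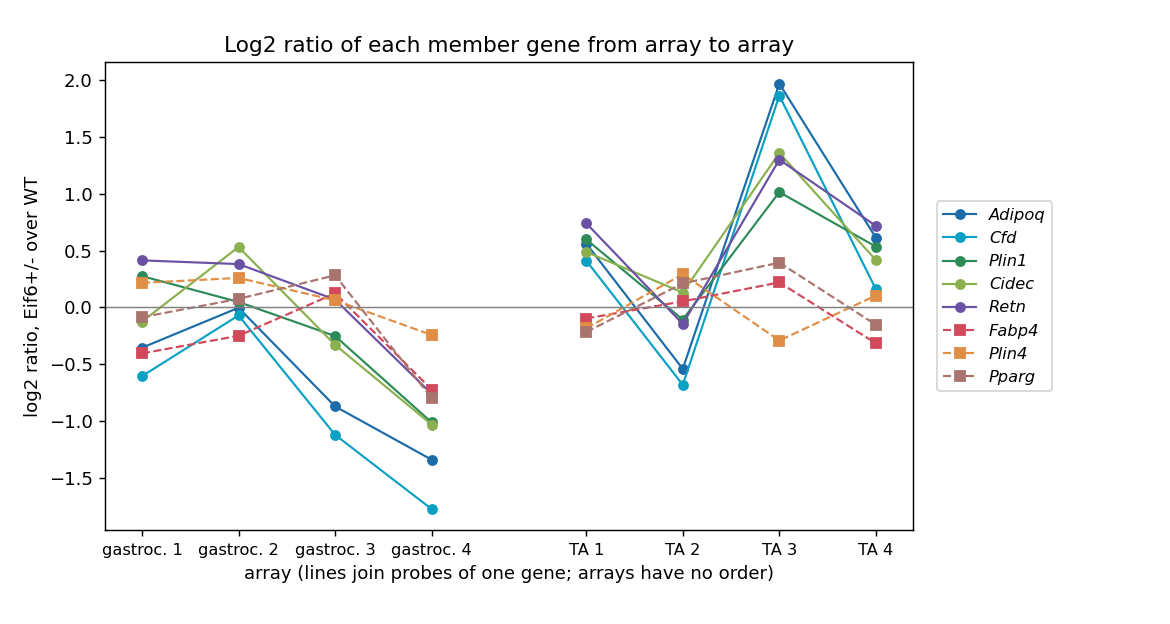
Log2 ratio, *Eif6*+/- over WT, of the brightest probe of each tested member on each of the 8 arrays, with lines to join the values of 1 gene within a muscle (the arrays have no order). Solid lines are *Adipoq*, *Cfd*, *Plin1*, *Cidec* and *Retn*, and dashed lines are *Fabp4*, *Plin4* and *Pparg*, which span less in TA.

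The members did not all follow the same course over the 8 arrays. Set against the mean of the other 7 tested member genes, the Pearson r was 0.957 for *Cfd*, 0.948 for *Plin1* and 0.933 for *Adipoq*, and above 0.948 for *Cidec* and *Retn*. It was 0.632 for *Fabp4*, 0.629 for *Pparg* and −0.180 for *Plin4*. Members with wide ratios weigh most in such a mean. These r describe 8 arrays, 4 of each muscle on the same slide, and 4 arrays are too few for an r within a muscle.

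The mean profile of the 8 tested members was set against the 12200 genes whose brightest probe was kept in both muscles. The 10 other genes with the highest r to it were *C1qtnf1* (0.957), *Cyp2e1* (0.954), *Chst1* (0.942), *Slc36a2* (0.940), *Ifi27l2a* (0.929), *Prkar2b* (0.928), *Slc1a5* (0.926), *Fadd* (0.924), *Epha4* (0.924) and *Mideas* (0.913), each over the same 8 arrays. *Cyp2e1*, which encodes a cytochrome P450, had log2 ratios of −0.51, 0.51, −0.84 and −1.75 in *gastrocnemius* and of 0.08, −0.19, 1.37 and −0.15 in TA. Its lowest and highest arrays were those of *Cfd* within *gastrocnemius*, and in TA its highest was the same, pair 3. *Epha4* and *Mideas* had a like course at a far smaller scale, from −0.13 to 0.24 and from −0.18 to 0.18.

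Whether the genotype ratio differs between the muscles was tested over all 8 arrays. The difference, *gastrocnemius* minus TA, was −1.33 for *Cfd* (95% interval −2.41 to −0.26) and −1.29 for *Adipoq* (−2.29 to −0.30). It was −0.84 for the brighter *Cidec* probe and −0.63 and −0.70 for the *Retn* probes. For *Plin1* no size is given, since on 1 TA array it was kept through the *Eif6*+/- channel alone. The median over the 9 member probes was −0.70, and that over all probes 0.01. After adjustment by limma 0 of 9 member probes were called, beside 0 percent of 22765 probes, and the smallest adjusted p among members was 0.636. At an unadjusted p under 0.05, 5 of 9 member probes and 1734 of 22765 probes passed, and *Plin1* is among the 5. The dimmer *Cidec* probe, called in *gastrocnemius*, was not tested for this difference.

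Because all WT mice were read in Cy3, a probe's WT level can be compared between the muscles. The log2 intensity of *Cfd* in WT *gastrocnemius* was 14.28, 14.05, 13.43 and 15.50 for pairs 1 to 4, and in WT TA 11.10, 10.41, 11.16 and 11.28. *Adipoq* was at 10.37, 10.01, 9.29 and 11.33 in WT *gastrocnemius* and at 7.28, 7.22, 7.47 and 7.55 in WT TA. For both genes the lowest *gastrocnemius* lay well above the highest TA. The difference was 3.33 for *Cfd*, 10.0-fold, with an adjusted p of 0.00206, and 2.87 for *Adipoq*, 7.29-fold, with an adjusted p of 0.00248.

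Also higher in WT *gastrocnemius* were *Cidec* by 2.38 (adjusted p 0.00928), the *Retn* probes by 2.29 and 2.31 and *Plin1* (adjusted p 0.0125). For *Plin1*, dim in WT TA, no size is given, and with both channels required above background it was not tested and the other 5 probes were called. In all, 6 of 9 member probes, for 5 of 8 genes, were called, all higher in *gastrocnemius*, beside 18.5 percent of 22765 probes in either direction and 6.83 percent higher in *gastrocnemius*. *Fabp4* differed by −0.00 (95% interval −0.34 to 0.33), *Plin4* by 0.14 and *Pparg* by 0.45 (adjusted p 0.226), and these 3 were not called. When 12200 genes were ranked by this WT difference, *Cfd* was at 3, *Adipoq* at 8, *Cidec* at 18 and *Retn* at 22, while *Pparg* was at 754, *Plin4* at 2796 and *Fabp4* at 5338. Markers of other cells were higher in WT *gastrocnemius* too: 6 of 8 slow fibre genes (median 2.11), 6 of 13 of fibro-adipogenic progenitors and connective tissue (median 0.48) and 4 of 7 macrophage genes (median 0.95), with 0 lower in each list, and their part in the members' difference was not tested. Without any 1 pair of either muscle, 6 or 7 member probes were called.

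**Figure D3:**
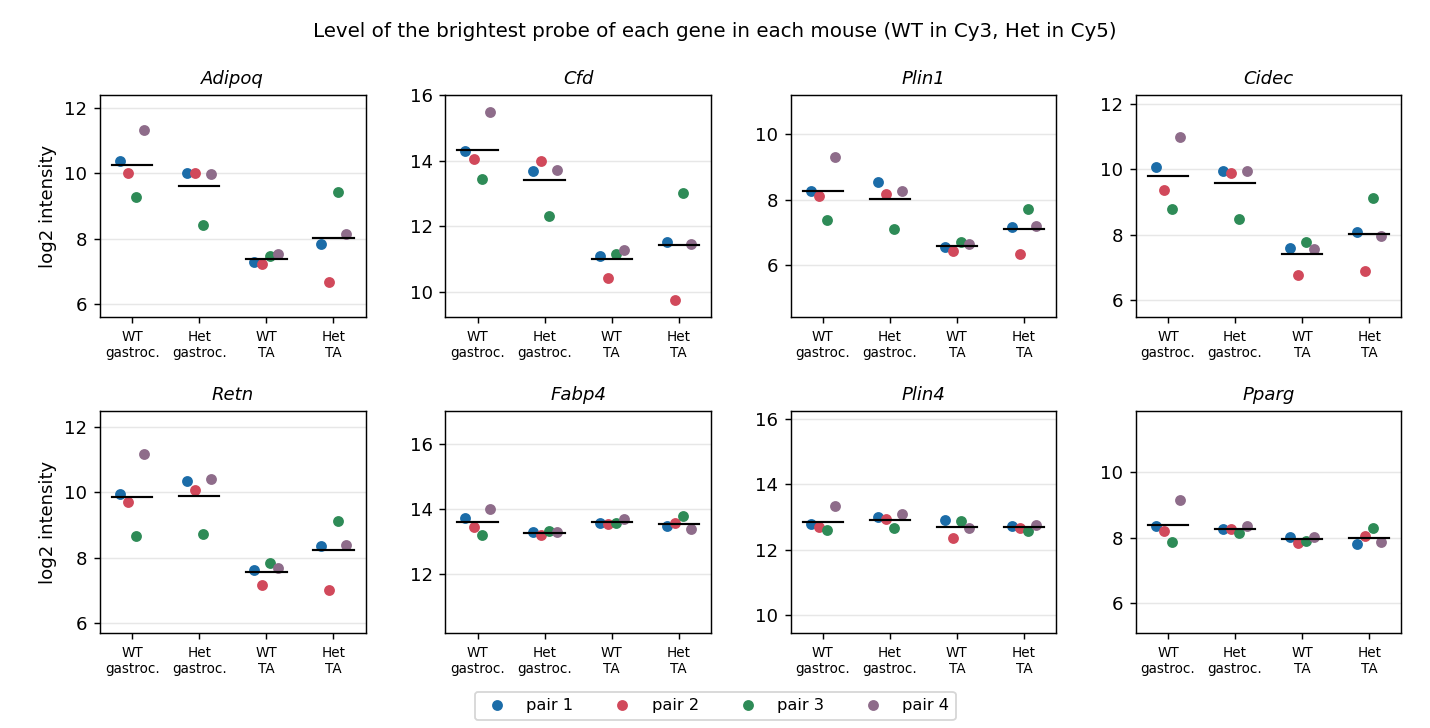
Log2 intensity of the brightest probe of each tested member gene in each mouse, WT in Cy3 and *Eif6*+/- (Het) in Cy5, in *gastrocnemius* (gastroc.) and TA. Points are mice, coloured by pair number within a muscle, the line is the mean, and each panel spans the same range of log2 units. *Adipoq* and *Cfd* show WT *gastrocnemius* apart from WT TA, by 2.87 and 3.33, and *Fabp4* shows no such gap.

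The *Eif6*+/- mice were all read in Cy5, so their muscles can be compared in the same way. *Cfd* was at 13.67, 13.98, 12.31 and 13.72 in *Eif6*+/- *gastrocnemius* and at 11.51, 9.73, 13.02 and 11.44 in *Eif6*+/- TA. *Adipoq* was at 10.01, 10.00, 8.42 and 9.99 in the former and at 7.84, 6.68, 9.44 and 8.16 in the latter. Here the muscles overlapped, since pair 3 was the lowest in *gastrocnemius* and the highest in TA. The difference between muscles was 1.99 for *Cfd* (adjusted p 0.0640), 1.57 for *Adipoq* (0.0927), 1.54 for *Cidec* (0.0607), 1.61 and 1.67 for *Retn* and 0.93 for *Plin1* (0.104, not called). *Fabp4* was called lower in *gastrocnemius*, by −0.28 (adjusted p 0.0793), beside 8.51 percent of all probes called lower there. That made 6 of 9 member probes called, 5 of them higher in *gastrocnemius*, beside 14.7 percent of 22765 probes in either direction and 6.2 percent higher in *gastrocnemius*. This count fell to 0 without *gastrocnemius* pair 1, 2 or 4 or without TA pair 1, to 1 without TA pair 2 and to 3 without TA pair 4, and it was 8 without *gastrocnemius* pair 3 and 7 without TA pair 3. Markers of other cells were higher in *Eif6*+/- *gastrocnemius* too. These were 8 of 8 slow fibre genes (median 2.23), 7 of 8 nerve genes (0.71) and 4 of 7 macrophage genes (0.40). In each of these lists 0 were lower. Of 13 genes of fibro-adipogenic progenitors and connective tissue, 3 were higher and 1 lower. The part of these cells in the members' difference was not tested.

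In order of mean log2 intensity, *Cfd* ran from WT *gastrocnemius* (14.31 ± 0.87 SD) through *Eif6*+/- *gastrocnemius* (13.42 ± 0.75) and *Eif6*+/- TA (11.43 ± 1.35) to WT TA (10.99 ± 0.39). *Adipoq* had the same order, with 10.25 ± 0.85, 9.61 ± 0.79, 8.03 ± 1.14 and 7.38 ± 0.16. For both genes each group overlapped with its neighbour in this order, in which the dye differs between the genotypes. In WT *gastrocnemius* all 10 tested member probes were highest in pair 4 and lowest in pair 3. The spread was largest for *Retn* probe A_55_P2428514, 5.75-fold from the lowest to the highest mouse, with *Cidec* at 4.56-fold, *Cfd* at 4.19-fold and *Adipoq* at 4.12-fold, and smallest among tested members for *Plin4* at 1.66-fold and *Fabp4* at 1.75-fold. In TA *Cfd* spanned 9.80-fold and *Adipoq* 6.78-fold among *Eif6*+/- mice, against 1.82-fold and 1.25-fold among WT mice, while *Plin4* spanned less among *Eif6*+/- mice (1.13-fold) than among WT mice (1.47-fold). For *Cfd* and *Adipoq*, the lowest *gastrocnemius* ratio, that of pair 4, came with the highest WT level. Their highest TA ratio, that of pair 3, came with the highest *Eif6*+/- level. The ratios of *gastrocnemius* pair 3, −1.12 and −0.87, came instead with the lowest WT and the lowest *Eif6*+/- level. A ratio is made from these same levels, so they do not show which mouse was unusual.

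The promoters of 5 members are shown from RefSeq (GRCm38.p6), 250 bases upstream of the start, 5′ to 3′ on the gene's strand. Of the 9 members, 8 had an entry in the set of promoters used, and *Fabp4* had none there. Letters in capitals match, on either strand, the C/EBP motif TTGCNNAA or the CCAAT box CCAAT. *Adipoq* lies at chr16:23146286-23146535 on the + strand, *Plin1* at chr7:79732777-79733026 on the - strand and *Cidec*, at 1 of its 2 starts, at chr6:113434765-113435014 on the - strand. *Cfd* lies at chr10:79890603-79890852 on the + strand and *Retn* at chr8:3655520-3655769 on the + strand.
Adipoq: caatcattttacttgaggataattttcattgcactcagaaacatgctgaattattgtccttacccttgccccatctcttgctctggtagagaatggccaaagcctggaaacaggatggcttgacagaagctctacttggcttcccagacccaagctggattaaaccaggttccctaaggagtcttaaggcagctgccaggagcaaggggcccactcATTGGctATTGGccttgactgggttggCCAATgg
Plin1: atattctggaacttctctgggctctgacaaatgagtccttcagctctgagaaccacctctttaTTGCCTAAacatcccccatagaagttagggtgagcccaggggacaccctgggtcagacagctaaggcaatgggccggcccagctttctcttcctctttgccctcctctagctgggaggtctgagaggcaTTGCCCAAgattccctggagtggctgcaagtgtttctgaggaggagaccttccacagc
Cidec: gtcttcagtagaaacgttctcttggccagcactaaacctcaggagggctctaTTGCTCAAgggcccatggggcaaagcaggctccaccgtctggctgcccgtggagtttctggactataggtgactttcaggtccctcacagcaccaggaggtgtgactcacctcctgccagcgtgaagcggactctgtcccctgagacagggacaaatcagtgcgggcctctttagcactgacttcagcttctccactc
Cfd: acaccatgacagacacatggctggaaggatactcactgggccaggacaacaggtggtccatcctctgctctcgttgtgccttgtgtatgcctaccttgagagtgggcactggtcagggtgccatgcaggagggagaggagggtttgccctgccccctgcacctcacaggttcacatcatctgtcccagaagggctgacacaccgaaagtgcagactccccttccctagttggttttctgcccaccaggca
Retn: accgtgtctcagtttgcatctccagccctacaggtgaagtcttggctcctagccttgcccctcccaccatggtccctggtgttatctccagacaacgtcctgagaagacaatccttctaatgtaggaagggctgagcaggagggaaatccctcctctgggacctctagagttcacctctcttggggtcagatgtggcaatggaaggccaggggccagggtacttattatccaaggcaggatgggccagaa

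*Adipoq* had 3 matches to CCAAT, and *Plin1* had 2 to TTGCNNAA and *Cidec* 1 at the start shown. The other start of *Cidec* had no match to either motif. Some members have several starts, and the 8 genes had 11 promoters in the set. Over all 32851 promoters of this length, 9.56 percent held TTGCNNAA. Of the 11 member promoters 4 did, at *Plin1*, *Lep*, *Cidec* and *Pparg*. CCAAT was in 33.8 percent of promoters, and in 4 of the 11 member promoters, at *Adipoq*, *Plin4* and *Pparg*. The nuclear receptor motif AGGTCA, in 14.0 percent, and the TATA box TATAAA, in 12.4 percent, were found among members only at *Pparg*. They were in 2 and 1 of the 11 member promoters. *Cfd* and *Retn* held none of the 4 motifs in this window. A match is letters alone and shows no bound factor.

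Other genes that act in fat cells or in lipid handling were read by list, with the brightest probe of each gene. In bulk muscle other cells can express such genes too, so the counts below are not counts of fat cell changes. Beside these counts, of all probes 5.68 percent were called lower and 8.08 percent higher in *Eif6*+/- *gastrocnemius*, and 7.52 percent lower and 7.68 percent higher in *Eif6*+/- TA. Of 15 genes for lipid droplets and lipolysis, 1 was called lower in *gastrocnemius* and 3 lower in TA, among them *Bscl2*, which encodes seipin, at −0.39 in *gastrocnemius* and −0.27 in TA. *Lipe*, which encodes hormone-sensitive lipase, was at −0.28 in TA (adjusted p 0.0920). Of 14 genes for fatty acid uptake and triglyceride synthesis, 1 was higher and 1 lower in *gastrocnemius*, and 3 of 13 were lower in TA. The one lower in *gastrocnemius* was *Pck1*, which encodes an enzyme that supplies the glycerol backbone of triglyceride in fat cells, with −0.65, −0.29, −0.91 and −1.06 on the 4 arrays (adjusted p 0.0357). In WT mice *Pck1* was 1.93 higher in *gastrocnemius* than in TA (adjusted p 0.00336). *Pck1* was thus below 0 on all 4 *gastrocnemius* arrays. *Cfd* and *Adipoq* were too, but in pair 2 only by −0.07 and −0.0037.

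Of 12 genes of de novo lipogenesis, 1 was higher in *gastrocnemius*, and 3 were higher and 1 lower in TA. *Scd1*, which encodes a fatty acid desaturase, had TA ratios of 0.92, −0.33, 1.56 and 1.06 (adjusted p 0.0858), with pair 2 lowest and pair 3 highest, as for *Cfd* and *Adipoq*. In *gastrocnemius*, unlike these, it lay on both sides of 0, at 0.92, −0.36, 0.16 and −0.84 (adjusted p 0.955). Of 12 adipogenic transcription factors, 3 were higher and 2 lower in *gastrocnemius*, and 1 was higher in TA. *Cebpa*, which acts with *Pparg* late in fat cell formation, was at −0.30, −0.61, −0.92 and −1.17 in *gastrocnemius* (adjusted p 0.0375), where *Cebpb*, which acts earlier, was at 0.53 (adjusted p 0.0450). Neither of these 2 was called in TA, and *Pparg* was called in neither muscle. Of 22 adipokines, their receptors and fat cell surface proteins, 1 of 22 was lower in *gastrocnemius* and 1 of 18 lower in TA. Of 8 genes listed for thermogenic fat cells, *Ucp1* and *Elovl3* were well above background in no reading. Of the 6 tested, 3 were higher in *gastrocnemius*: *Zic1* at 0.86, *Cox8b* at 0.40 and *Ppargc1a* at 0.33. In TA 0 of the 6 were called. In WT mice 2 of these 6 were lower in *gastrocnemius* than in TA, beside 11.6 percent of all probes. Which cells of the muscle these transcripts came from was not measured.

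**Figure D4:**
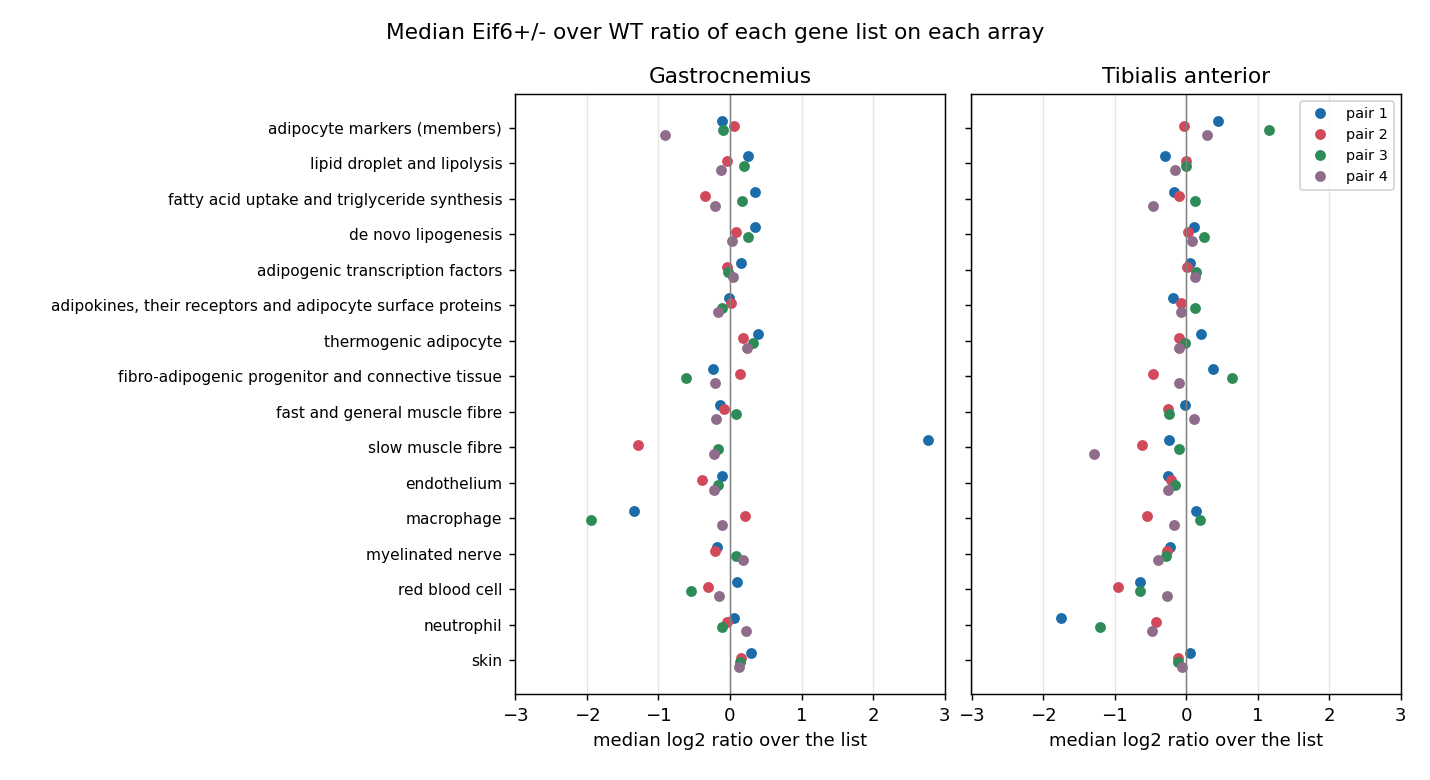
Median log2 ratio, *Eif6*+/- over WT, over the genes of each list tested in the muscle (brightest probe of each gene) on each array, *gastrocnemius* on the left and TA on the right. Points are arrays, coloured by pair number within the muscle. The members reach −0.91 in *gastrocnemius* pair 4 and 1.16 in TA pair 3, and the slow fibre list reaches 2.77 in *gastrocnemius* pair 1.

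Genes that mark other cells in muscle moved on some of the same arrays, and their counts are to be read beside 5.68 percent of all probes called lower and 8.08 percent higher in *gastrocnemius*, and 7.52 percent lower and 7.68 percent higher in TA. Of 13 genes of fibro-adipogenic progenitors and connective tissue, 2 were lower in *gastrocnemius* and 0 were called in TA. The median over this list was −0.24, 0.15, −0.62 and −0.21 on the *gastrocnemius* arrays and 0.37, −0.47, 0.64 and −0.10 on the TA arrays, so TA pair 2 was its lowest and TA pair 3 its highest, as for the members. Its summed intensity in *gastrocnemius* was 112379, 78993, 177043 and 91939 in WT and 96943, 82001, 75319 and 99232 in *Eif6*+/- mice. In TA it was 48947, 70320, 37652 and 69984 in WT and 63234, 42635, 111932 and 63856 in *Eif6*+/- mice. In WT *gastrocnemius* this sum was highest in pair 3, where the members were lowest. *Dcn* was the brightest gene of the list, and all 13 were well above background in some reading. The part of this tissue in the members' ratios was not tested.

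Of 9 macrophage genes, 8 had a probe and 7 were tested, with 1 lower in each muscle and *Csf1r* the brightest. The median over the tested genes was −1.34, 0.20, −1.94 and −0.12 on the *gastrocnemius* arrays, near 0 in pair 4, where the members were lowest. On the TA arrays it was 0.13, −0.55, 0.19 and −0.17, lowest in pair 2 and highest in pair 3, as for the members. Of 8 slow fibre genes, 0 were called in *gastrocnemius* and 4 were lower in TA, with medians of 2.77, −1.29, −0.17 and −0.22 on the *gastrocnemius* arrays. Of 10 fast and general fibre genes, 1 was higher and 3 lower in *gastrocnemius*, and 1 higher and 2 lower in TA. Of 8 endothelial genes, 2 were lower in *gastrocnemius* and 4 in TA, and endothelium is among the cells that express *Fabp4*. Of 8 genes of myelinated nerve, 0 were called in *gastrocnemius* and 5 were lower in TA, and of 6 red cell genes 0 of 5 and 4 of 6 were lower. Of 6 neutrophil genes, 0 of 1 tested and 2 of 2 tested were lower, with *Ngp* well above background in no reading. *S100a9* was among the 2 in TA. There the summed intensity of the 6 genes was 1059, 793, 869 and 521 in WT mice. In *Eif6*+/- mice it was 422, 589, 449 and 434. The filter asked for 1 channel alone, so these 2 calls may rest on *Eif6*+/- readings near background. Of 5 skin genes, 1 of 2 tested was higher in *gastrocnemius* and 0 of 2 were called in TA, with *Krt1* well above background in no reading. The part of these cells in the members' ratios was not tested.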

How the data were processed

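The scanner files deposited for each array hold, per the file headers, median spot intensity, processed intensity and, per spot, the log10 of the Cy5 to Cy3 ratio (Agilent Feature Extraction). The table deposited by the authors holds log2 ratios per spot, and its scale, centring and direction were read from the data: it correlates at r of 0.999939 to 0.999983 with the log2 ratio of Cy5 over Cy3 computed here by loess from intensities without background correction, and its columns are centred on 0, with medians of 0.00257, 0.000831, −0.00441 and 0.00375 in *gastrocnemius* and 0.00138, −0.000366, 0.00288 and 0.00212 in TA, in order of pair. Here, median intensities were background-corrected (normexp, offset 50), loess-normalized within arrays and quantile-normalized across the 16 channels in limma 3.58.1 (R 4.3.3). A probe was kept for a muscle if on each of its 4 arrays one channel or both lay well above background, and limma fits were adjusted by Benjamini-Hochberg over all kept probes, with calls at 0.1. Between 38.8 and 48.6 percent of probes were well above background in each channel, no spot was saturated, and the number of arrays limits the precision. Genes were named through RefSeq accessions: of 55681 probes 28685 have one and 27235 matched a gene. Members and the 15 other lists were chosen with earlier results of these data known. Named were all member probes, *Eif6*, from each list up to 4 called genes with the largest mean log2 ratio (2 brightest if none was called), of which some are given, and the 10 genes nearest to the mean member profile. Of the settings, 2 were chosen after the members' values had been seen, to follow an earlier processing of these data: control spots were kept in the quantile step, and a probe with several spots counted as well above background if any spot was. The other form of each was run too. Alternatives covered normalization, background, signal, filter, threshold, SAM and each pair left out. Python 3.11.15, pandas 2.3.3 and matplotlib 3.10.9 were used for lists, promoters and figures.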

Additional observations from a re-analysis of the deposited data

Results flagged for a closer look

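The ratios and levels of the 11 member probes and the 2 *Eif6* probes, and the members' medians, were looked at in 80 groups of 4 arrays, and in 3 of them 1 sample stood far from the other 3. All 3 were the *Eif6*+/- *gastrocnemius* of pair 3. *Adipoq* was at a log2 intensity of 8.42 there, where the other 3 mice were at 9.99 to 10.01. *Cidec* probe A_55_P1969131 was at 8.47, with the others at 9.89 to 9.96, and probe A_55_P1969128 at 6.74, with the others at 7.32 to 7.36. Chance alone sets a sample apart by this rule in about 1 in 20 groups, and the 3 are readings of 1 mouse at 2 genes. The cause was not tested.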

How the results depend on the processing

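The 3 member probes called in *gastrocnemius* (*Cfd*, *Adipoq* and *Cidec*) became 0 with Agilent processed signals, 0 with no filter on dim probes and 0 at an adjusted p under 0.05, and 0 to 3 without 1 pair. They became 2, without *Adipoq*, with loess alone and with a normexp offset of 0, and the same 3 were called with quantile normalization alone, no background correction, the deposited log2 ratios, the stricter filter and SAM. With processed signals the ratios did not shrink as the calls did, at −0.83 for *Cfd*, −0.76 for *Adipoq* and −0.89 for the dimmer *Cidec* probe. The 3 called in TA (*Cidec*, *Retn* and *Plin1*) became 2, without *Plin1*, with the stricter filter, 1 with a normexp offset of 0, 0 with processed signals, 5 with SAM and 0 at an adjusted p under 0.05, and 0 to 5 without 1 pair. The difference between muscles gave 0 member probes under every alternative run, each pair left out included. The 6 probes called between WT muscles became 5 with the stricter filter, without *Plin1*, 7 with no filter on dim probes, 6 at an adjusted p under 0.05, and 6 to 7 without 1 pair. The 6 called between *Eif6*+/- muscles became 5, without *Adipoq*, with Aquantile in place of quantile normalization and with processed signals, 4 with no filter on dim probes, without *Adipoq*, *Cfd* and *Fabp4* but with both *Cidec* probes, 0 at an adjusted p under 0.05, and 0 to 8 without 1 pair. The median member ratio ran from −0.33 to 0.02 in *gastrocnemius* and from 0.21 to 0.73 in TA without 1 pair. The causes were not tested.

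Some single ratios changed sign. In *gastrocnemius*, *Retn* probe A_55_P2428514 became −0.0099 with processed signals and ran from −0.10 to 0.29 without 1 pair, negative without pairs 1 and 2. Without pair 4, *Pparg* became 0.090 (lowest −0.27 over the pairs left out), *Plin1* 0.023 (lowest −0.41), *Cidec* probe A_55_P1969131 0.025 (lowest −0.50) and *Retn* probe A_55_P1984806 0.022 (lowest −0.30). In TA, *Plin4* was above 0 without pairs 1 and 3 (−0.12 to 0.070), *Pparg* and *Cfd* below 0 without pair 3 (−0.053 to 0.15 and −0.037 to 0.81), and *Fabp4* above 0 without pair 4 (−0.12 to 0.058).

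With pair number as a replicate block, 0 member probes were called for the difference between muscles, 6 between WT muscles and 4 between *Eif6*+/- muscles. In the last, *Fabp4* and both *Retn* probes were also among the 6 called without the block, *Plin4* was newly called (adjusted p 0.0767), and *Cfd* (0.110), *Adipoq* (0.147) and *Cidec* (0.106) were not called. The log2 ratios gave no sign of pairing across muscles. Same-numbered arrays correlated at r of −0.145, 0.0186, −0.356 and 0.0896 across probes, and none of the 4 correlated best with its own number. Of the levels, WT pair 4 (r 0.192) and *Eif6*+/- pairs 1 (0.187) and 4 (0.153) did, and the others did not. Such r, taken about means of 4 arrays, cannot tell whether same-numbered arrays came from the same mice. Control spots were kept in the quantile step, and any spot of a probe let it count as above background, by choices made after seeing the data. With the other form of each setting, control spots dropped or more of a probe's spots required, the same member probes were called in all comparisons.

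With 4 arrays per muscle, no dye swap and 1 slide, genotype and dye, and muscle and slide row, cannot be told apart. Probes near background, *Lep* and the dimmer *Cidec* probe among them, have compressed ratios at an offset of 50, so a small change in them may have been missed. The dimmer *Cidec* probe was at −0.54 in *gastrocnemius*, against −0.76 at offset 0 and −0.89 with processed signals.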
